A study of Mus musculus with 4 samples.

Results

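Retained introns were described as the intron retention events of the SpliceTrap tables, in which each event is a trio of a left flanking exon, the intron and a right flanking exon. Each table listed 228333 splicing events, of which 1190 were intron retention events. The rule kept the 839 events (70.5%) whose trio held 20 or more reads in all 4 libraries. These held 833 distinct introns. A host gene could be named for 819 of the events, which gave 656 hosts, 123 of them with 2 or more events. Of the 351 events that were not kept, 155 had 0 reads in every library. The lowest library of an event just inside the rule had 20 reads and that of an event just outside had 19. The libraries came from N2A, a mouse neuroblastoma line with neuronal traits, and measured poly(A) RNA with strand-specific 100-base paired reads. Cells were incubated for 5 h with Lipofectamine complexes carrying shRNA that was a control, targeted Ptbp1, targeted Ptbp2 or targeted both, and were then grown for 3 days. Each condition was 1 library, so differences had no replicate check, no test across samples was possible, and intervals on reads cover counting error only. In such bulk RNA, fewer cells with a transcript and less transcript per cell cannot be told apart.

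Intron retention leaves an intron in a polyadenylated RNA, which often keeps that RNA in the nucleus or exposes it to nonsense-mediated decay, because introns in coding sequence tend to carry stop codons. Ptbp1 and Ptbp2 are paralogous polypyrimidine tract-binding proteins, which bind pyrimidine-rich RNA and regulate splice site choice. Ptbp1 is broad in its expression and falls during neuronal differentiation, when Ptbp2 rises, and Ptbp1 is known to repress productive splicing of Ptbp2.

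The introns that carried the differences described further on were of contrasting sequence. They are shown 5′ to 3′, whole where short and otherwise as their last 100 bases. Capitals mark the splice site bases, GT at the 5′ end and AG at the 3′ end. The letters were read from GENCODE vM21 transcripts that hold the intron, on GRCm38, because the deposited positions are on mm9 and sequences were matched by gene structure and not by position. The first came from an intron that was less retained when Ptbp1 was depleted, the last intron of Med22 (GRCm38 chr2:26905994-26906093, minus strand).

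Med22 intron end: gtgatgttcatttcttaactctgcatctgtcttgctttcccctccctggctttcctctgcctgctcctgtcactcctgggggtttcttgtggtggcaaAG

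The next came from introns that were more retained when Ptbp1 was depleted, the last intron of Mat2a (chr6:72434396-72434495, minus strand) and an inner intron of Pdlim7 (chr13:55507367-55507487, minus strand).

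Mat2a intron end: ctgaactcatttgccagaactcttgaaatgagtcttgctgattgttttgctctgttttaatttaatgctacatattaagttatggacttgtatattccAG

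Pdlim7 intron: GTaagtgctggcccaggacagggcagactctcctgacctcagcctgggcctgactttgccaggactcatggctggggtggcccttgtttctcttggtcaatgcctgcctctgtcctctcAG

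The last set came from short GC-rich introns that were more retained in the Ptbp2 knockdown. They lie in Skiv2l (chr17:34845756-34845827 and chr17:34845101-34845167, minus strand), Tmem259 (chr10:79978476-79978547, minus strand) and Ptov1 (chr7:44864836-44864912, minus strand).

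Skiv2l intron of 72 bases: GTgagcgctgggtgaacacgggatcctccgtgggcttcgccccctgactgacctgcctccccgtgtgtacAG

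Skiv2l intron of 67 bases: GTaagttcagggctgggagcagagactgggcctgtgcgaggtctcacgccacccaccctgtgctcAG

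Tmem259 intron: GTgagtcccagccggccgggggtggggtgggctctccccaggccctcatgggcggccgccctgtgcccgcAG

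Ptov1 intron: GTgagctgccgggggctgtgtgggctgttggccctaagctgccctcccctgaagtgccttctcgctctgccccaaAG

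The depletions were seen in the exon reads of the target genes, given per kb after scaling between libraries. Ptbp1 read 248 in control, 72.1 with Ptbp1 depleted, 283 with Ptbp2 depleted and 55.3 with both depleted, so 29.1% and 22.3% of the control level was left in the libraries that received its shRNA. Ptbp2 read 32.6, 64.0, 8.50 and 13.8 in the same order, and was thus 197% of control in the Ptbp1 knockdown and 26.1% and 42.5% where it was targeted. Exon reads numbered 209 M in control, 168 M with Ptbp1 depleted, 196 M with Ptbp2 depleted and 209 M with both depleted. The identity of the line was visible in the 9 of 13 neuronal and neuroblastoma markers with a level, with Gap43 and Stmn2 the highest in control, whereas Nefl and Nefm were near 0. Astrocyte, microglial and fibroblast markers summed to less than 1 per kb in every library, and of the oligodendrocyte markers Mog and Mag did.

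Most measured introns were short and lay in coding sequence. The quartiles of intron length were 102, 254 and 679.5 bases, and the longest was 6792 bases. Structure matching put 572 in coding sequence, 59 in a 5′ UTR, 59 in a 3′ UTR, 2 in either UTR depending on the transcript and 41 in noncoding transcripts, and 106 were unmatched. Of the 659 introns of at least 60 bases with a sequence, 640 began with GT and ended with AG, 16 were GC to AG and 1 was AT to AC. Of the 498 whose reading frame could be followed, 388 (77.9%) met a stop codon in the intron, 71 had none and kept the frame and 39 had none and shifted it. Sequence and frame were read only where a GENCODE transcript keeps the whole intron within an exon. Shares based on them therefore cover introns with an annotated retained form and not all measured introns. Of the 839 events, 51 had a middle segment under 60 bases, 4 of them of size 0, which is shorter than a spliceosomal intron usually is. The sizes of 23 of those 51 were multiples of 3.

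A pair of measures was used for each intron. The SpliceTrap retention ratio is the authors' estimate of the fraction of transcripts that keep the intron, from 0 to 1. Junction retention was computed here as the mean of the reads over both exon-intron boundaries, as a percent of that mean plus the reads that skip the intron. It was used for the 700 introns in which every library had 20 or more of these reads. Across those introns the measures had a Spearman correlation of 0.85 in every library, given as a description because both draw on the same reads.

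In control cells the median retention ratio was 0.238, with quartiles of 0.056 and 0.793. The ratio was at least 0.5 for 290 introns, at least 0.9 for 172 and under 0.05 for 199. The median was 0.272 with Ptbp1 depleted, 0.264 with Ptbp2 depleted and 0.272 with both depleted, each somewhat above control. Median junction retention gave the same order of control below the others, at ratios of 0.275, 0.312, 0.314 and 0.318. Ratios of at least 0.5 were reached by 296, 303 and 299 introns in the Ptbp1, Ptbp2 and double knockdowns. The range of an intron's ratio over the 4 libraries had a median of 0.053 and was under 0.1 for 574 introns (68.4%), so most introns were retained to a like degree in all libraries, and 84 ranged over 0.2 or more.

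**Figure D1:**
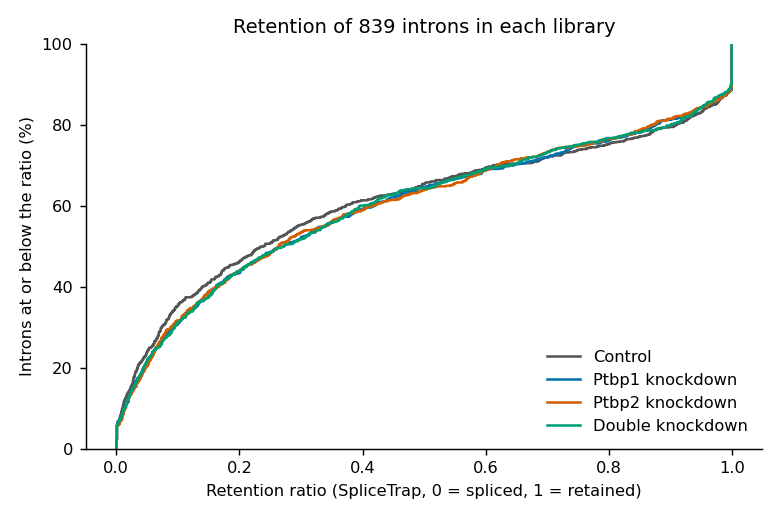
Cumulative share of the 839 introns (percent, y axis) at or below each SpliceTrap retention ratio (x axis), with 1 line per library. The lines lie close together, with control highest at low ratios and medians between 0.238 and 0.272.

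The strongest divide in the level of retention was whether the intron lies inside an exon of another RefSeq transcript, where the retained form is itself an annotated exon. The 292 such introns had a median control ratio of 0.848, and 200 of them (68.5%) were at 0.5 or more. The other 547 had a median of 0.108, and 90 (16.5%) reached 0.5. Of 126 introns at 0.9 or more in every library, 99 lay inside a RefSeq exon and 61 had no spliced read in any library. At the other end, 146 introns stayed under 0.05 in all libraries, 24 of them inside a RefSeq exon.

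Among introns with a named host and enough junction reads, 52 had no spliced read in control and stood as high as or above any intron with a spliced read, by the lower of both measures; 46 of them lay inside a RefSeq exon. The 10 events most retained in control among those with at least 1 spliced read all lay inside RefSeq exons. They belonged to Trmt112, Rb1cc1, Lrp8, Zfp960, Sec14l1, Slc7a6, Ap4b1, Mtf2 and Rnf41, with Zfp960 listed for a pair of introns that differ by 1 base. Trmt112, an activator of several methyltransferases, kept its first intron of 98 bases at ratios of 0.999, 0.999, 0.999 and 0.997 in control, Ptbp1 knockdown, Ptbp2 knockdown and double knockdown. Its last intron, of 78 bases, stood at 0.042, 0.048, 0.052 and 0.044. Introns of a single gene thus stood at nearly full and nearly absent retention, and neither intron moved between libraries by as much as 0.02. The ratios are of separate trios and do not tell whether both states occur in the same RNA molecules. Lrp8, which encodes the apolipoprotein E receptor 2, kept its last intron of 1708 bases at 0.999 in every library.

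Position in the transcript went with the level of retention. The median control ratio was 0.153 for coding introns, 0.602 for introns of a 5′ UTR, 0.686 for those of a 3′ UTR and 0.489 in noncoding transcripts. Among introns of RefSeq transcripts with more than 1 intron, the 359 inner introns had a median of 0.092, against 0.573 for 40 first introns and 0.471 for 123 last introns. Of the inner introns 12.8% were at 0.5 or more, compared with 52.5% of first and 47.2% of last introns. How far the overlap with RefSeq exons goes with these levels was not tested. Coding introns without a stop that keep the frame had a median of 0.556, those with a stop 0.111, and the 39 without a stop that shift the frame 0.071.

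Length separated the introns less. Median control ratios were 0.241 from 60 to under 100 bases, 0.287 up to 200, 0.25 up to 500, 0.268 up to 1000 and 0.149 at 1000 bases or more. The Spearman correlation of ratio with length was -0.07 over 788 introns of at least 60 bases. Host gene level showed a steeper trend: median ratios ran 0.432, 0.263, 0.246 and 0.097 from the lowest to the highest quartile of host level, and the Spearman correlation was -0.26 over 704 introns. These correlations are across introns, some of which share a host, and the ratio and the host level come from the same libraries. Hosts had a median level of 15.8 reads per M per kb in control, close to the 17 of the 8856 genes at 1 or more. That floor was not put on the hosts, and the median over all 15979 genes with a level was 2.83.

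**Figure D2:**
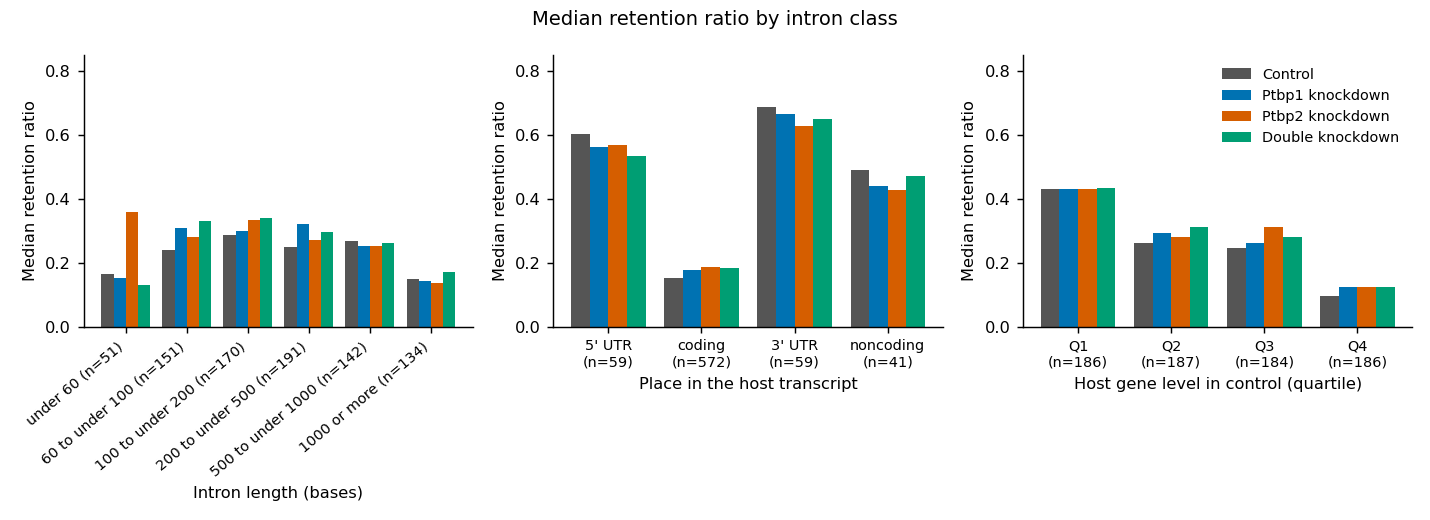
Median SpliceTrap retention ratio (y axis) by intron length, by place in the host transcript and by quartile of host gene level in control (x axes, with the number of introns), with 1 bar per library. UTR introns and introns of the least expressed hosts are the most retained in all 4 libraries, and coding introns and those of the most expressed hosts the least.

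Host genes of known function were examined through fixed lists. Ribosomal protein genes held 12 measured introns of 9 hosts with a median control ratio of 0.039, against 0.238 over all introns. None of the 12 ratios differed from control by 0.1 in any knockdown. Over all introns 6.79% were higher and 4.65% lower in the Ptbp1 knockdown, 8.94% and 6.32% in the Ptbp2 knockdown, and 10.4% and 6.44% in the double knockdown. At such shares few of 12 introns would differ, and ratios near 0 have no room to fall. By junction retention the medians in control were closer, at 24.6% against 27.5% over introns with enough junction reads, and 2 of the 12 were Rpl41 events with a ratio of 0 and no spliced read. Rps27a read 0.602, 0.665, 0.589 and 0.623 in control, Ptbp1, Ptbp2 and double knockdowns for an intron in its 5′ UTR. Rpl10a read 0.459, 0.463, 0.463 and 0.392 for a 93-base intron and 0.097, 0.145, 0.144 and 0.125 for a coding intron of 326 bases. The 93-base event lies inside the 326-base one and was matched to the 3′ UTR of a transcript, so they are not separate observations. Junction retention moved more for some members: that of the 93-base Rpl10a intron was 61.3% in control and 49.8% with both depleted. Rps24 had junction retention of 36.8%, 61.8%, 46.9% and 57.8% on 238, 71, 152 and 87 spliced reads, while its ratio was between 0.057 and 0.07 in all libraries. Rpl3, whose product is known to act on the splicing of its own transcript, read 0.129 in control for its 403-base intron. That event lies inside the 583-base coding intron of Rpl3, which read 0.048 in control. Junction retention of the 403-base intron was 60.1%, far above its ratio, so the measures did not give the same level there.

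SR and hnRNP proteins, the families of splicing regulators to which the PTB proteins belong, had 5 measured introns of 38 listed genes, and no ratio passed 0.1 in a knockdown, where the share over all introns was 6.79% higher and 4.65% lower in the Ptbp1 knockdown, 8.94% and 6.32% in the Ptbp2 knockdown, and 10.4% and 6.44% in the double knockdown. Hnrnpdl, a known case of autoregulation through its 3′ UTR, held its intron of 1119 bases at 0.292, 0.317, 0.336 and 0.306 in control, Ptbp1, Ptbp2 and double knockdowns. Hnrnpc, a protein of nascent transcript particles, read 0.519, 0.578, 0.599 and 0.58 for an intron in its 5′ UTR, and its junction retention was 83.4%, 95.6%, 92.3% and 92.2%. Hnrnpl, which is closely related to the PTB proteins in its RNA-binding domains, read 0.502, 0.473, 0.497 and 0.527. Control was the lowest library for Hnrnpdl and Hnrnpc but not for Hnrnpl.

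Other spliceosome and RNA-binding proteins had 19 introns of 12 hosts with a median control ratio of 0.511, and 10 were at 0.5 or more. Tardbp, which encodes TDP-43 and limits its own level through processing of its 3′ end, supplied 6 events at 0.909 to 0.999 in control, of which 4 overlap and are not separate observations. Junction retention of the event at 0.909 was only 56.3% in control. In the Ptbp2 knockdown 3 of the 19 were higher by 0.1 or more and 1 lower, against 8.94% and 6.32% of all introns. The kinase gene Cdk11b read 0.511 in control against 0.703 with Ptbp2 depleted for an intron of 72 bases. Its junction intervals in those libraries overlapped (64.3% to 82.5% and 76.2% to 88.8%), and its boundary reads in control were uneven, at 116 and 11. Taf15, an RNA-binding protein of the FET family, read 0.359 against 0.488, but no spliced read was counted for it in any library. Cpsf1, a subunit of the cleavage and polyadenylation specificity factor, was at a ratio of 0.136 in control against 0.253 with Ptbp2 depleted for an intron of 66 bases. Its junction intervals there did not overlap (9.4% to 13.0% and 19.3% to 24.0%). Rbm5, a splicing factor, read 0.959, 0.882, 0.846 and 0.876 for an intron of 3329 bases and was the lower one.

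The list of kinases and enzymes known for nuclear retained introns gave Clk1, Clk3 and Mat2a among 7 genes. Clk1, a kinase of SR proteins, kept its intron at 0.193, 0.203, 0.173 and 0.195. Junction retention of the Clk1 intron was higher than these ratios, at 42.2%, 38.0%, 33.1% and 36.3%. Clk3 read 0.287, 0.338, 0.402 and 0.343 and was highest in the Ptbp2 knockdown. Chromatin and transcription genes had 7 introns of 4 hosts, of which 4 were higher by 0.1 or more in the Ptbp2 knockdown and 1 lower, against 8.94% and 6.32% of all introns. All 5 were events of the deacetylases Hdac5 and Hdac10, where 3 Hdac5 events overlap each other and the lower Hdac10 event overlaps the higher one, so they stand for 2 loci. In the order control, Ptbp1, Ptbp2 and double knockdown, Hdac5 read 0.709, 0.638, 0.907 and 0.594 for a 57-base intron and 0.462, 0.493, 0.608 and 0.425 for a 79-base intron. Hdac10 read 0.686, 0.71, 0.863 and 0.784 for its 278-base intron and 0.885, 0.863, 0.774 and 0.753 for the 103-base one within it. Junction retention of the 79-base Hdac5 event was 77.2%, 91.7%, 81.2% and 78.8%, highest in the Ptbp1 knockdown, where its ratio was not. That of the 57-base event was 94.0%, 86.8%, 95.6% and 72.2%, with only 2 spliced reads in control and 3 in the Ptbp2 knockdown. For the longer Hdac10 event it was 71.4%, 70.7%, 85.8% and 78.7%, highest in the Ptbp2 knockdown as was its ratio.

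Among synaptic genes, Dnm1, the gene of a dynamin that acts in endocytosis, read 0.541, 0.56, 0.584 and 0.538 for a 3′ UTR intron of 1386 bases. Its junction retention was far above these ratios, at 100%, 95.1%, 99.3% and 95.4%, on 0, 11, 1 and 8 spliced reads. Vamp1, a vesicle SNARE, read 0.781, 0.703, 0.562 and 0.587, but its junction retention was 91.2%, 87.0%, 95.1% and 80.2%, so the lower ratio in the Ptbp2 knockdown was not seen in its junction reads. Cell cycle genes had 3 introns of Top2a and Pole, none of which passed 0.1. That is too few to set against the shares over all introns. The tRNA synthetase list had only Wars, at 0.965 in control, and the lysosome list only Psap, in an event of size 0. No intron retention event was listed for Vamp2, Sv2a or Kif5a, neuronal genes whose last introns are known to be held back by Ptbp1, so these were not measured here.

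Against control, more introns shifted up than down in each knockdown, by small amounts. In the Ptbp1 knockdown 464 ratios were higher and 250 lower, in the Ptbp2 knockdown 429 and 273, and in the double knockdown 459 and 253. The median differences were only 0.005, 0.001 and 0.003. The 3 comparisons share the control library.

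Differences of 0.2 or more in the ratio were few. In the Ptbp1 knockdown 14 introns were higher (1.67% of those measured) and 12 lower (1.43%). In the Ptbp2 knockdown 20 were higher (2.38%) and 13 lower (1.55%), and in the double knockdown 18 were higher (2.15%) and 20 lower (2.38%). Values nearest the limit were 0.2 inside and 0.193 outside for introns higher in the Ptbp1 knockdown. Most of these introns were thinly covered: 61.5%, 60.6% and 65.8% of them had fewer than 20 junction reads in some library. The lowest library of an intron past the limit had a median of 154, 89 and 107 trio reads in the 3 comparisons, against 487 over all measured introns.

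**Figure D3:**
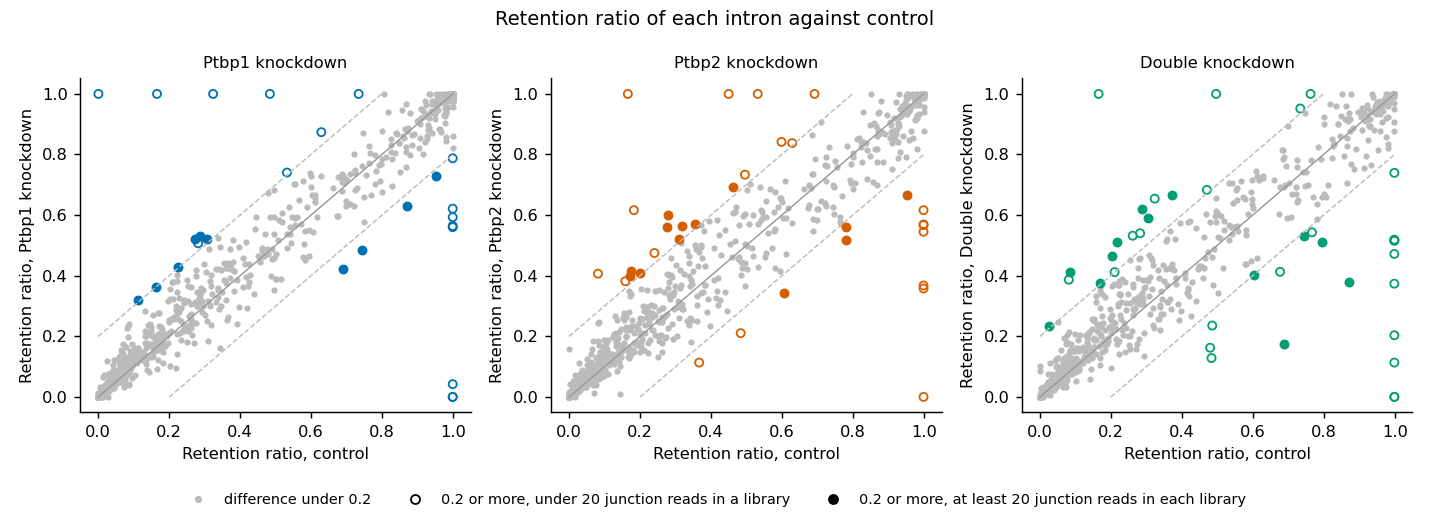
SpliceTrap retention ratio in each knockdown (y axis) against control (x axis), 1 point per intron and 1 panel per knockdown, with dashed lines at a difference of 0.2. Most introns lie near the diagonal, and open circles, with under 20 junction reads in some library, make up 61.5%, 60.6% and 65.8% of those outside the dashed lines.

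A stricter rule required a ratio difference of 0.2, a junction difference of at least 10 percentage points the same way, and 95% Wilson intervals that did not overlap. It kept 2 introns higher (0.286% of 700) and 3 lower (0.429%) in the Ptbp1 knockdown, 7 higher (1%) and 2 lower (0.286%) in the Ptbp2 knockdown, and 6 higher (0.857%) and 3 lower (0.429%) in the double knockdown. These were 20 introns of 18 hosts, and 16 of them interrupt coding sequence. In all 23 differences, retention computed from the 5′ boundary alone and from the 3′ boundary alone moved the same way. Both values use the same spliced reads, and the rule had already required their joint measure to move that way. The match is therefore a description and not separate support.

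The lower introns of the Ptbp1 knockdown and of the double knockdown were those of Med22, 2310022A10Rik and Slc35a4. Med22 encodes a subunit of the Mediator complex, which links transcription factors to RNA polymerase II. Its last intron, of 2099 bases (mm9 chr2:26761514-26763612), is inside the exon of another RefSeq form and brings a stop into the frame. The ratio was 0.689 in control, 0.422 with Ptbp1 depleted, 0.549 with Ptbp2 depleted and 0.176 with both depleted. Reads that skip the intron numbered 100, 182, 167 and 608, while those over its 5′ boundary numbered 301, 147, 259 and 106. The spliced form was thus the minor one in control and the major one in the double knockdown, and each single knockdown lay between them. Junction retention was 76.2% (95% interval 72 to 80.1), 50.2% (45.2 to 55.4), 66.4% (62.1 to 70.4) and 17.6% (15.0 to 20.5). The host level was 25.5, 19.8, 27.8 and 26.5 per kb.

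2310022A10Rik held the last of its 8 introns (659 bases) at ratios of 0.871 in control, 0.631 with Ptbp1 depleted, 0.879 with Ptbp2 depleted and 0.38 with both depleted. Spliced reads numbered 25, 73, 22 and 179, so the libraries with the Ptbp1 shRNA had the most. Control and the Ptbp2 knockdown had overlapping junction intervals, of 84.0% to 92.3% and 86.7% to 93.9%. Slc35a4, a member of the nucleotide sugar transporter family, has a 108-base intron in its 5′ UTR, which read 0.744, 0.485, 0.627 and 0.532. Here the double knockdown did not lie below the Ptbp1 knockdown, and the junction intervals of those libraries overlapped (46.4% to 55.2% and 52.4% to 59.8%).

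Mat2a was the best covered of the higher introns, with 51939, 60517, 51571 and 56595 trio reads. It encodes the methionine adenosyltransferase that makes S-adenosylmethionine, and retention of its last intron is known to vary with the supply of that metabolite. This intron, the last of 8 and 585 bases long (mm9 chr6:72384390-72384974), had ratios of 0.307 in control, 0.52 with Ptbp1 depleted, 0.316 with Ptbp2 depleted and 0.468 with both depleted. Spliced reads were 1384, 957, 1309 and 1033. Junction retention was 36.2% (34.2 to 38.2), 61.3% (59.4 to 63.2), 40.5% (38.4 to 42.5) and 54.8% (52.7 to 56.8), so both libraries with the Ptbp1 shRNA stood apart from the other two by more than counting error. The Mat2a gene level was 152.6, 177.6, 152.9 and 141.8 per kb. It was thus highest in the Ptbp1 knockdown and lowest in the double knockdown, the libraries in which the intron was more retained. Zfp740, a zinc finger gene, was the other intron higher in the Ptbp1 knockdown, at 0.162, 0.362, 0.23 and 0.237.

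**Figure D4:**
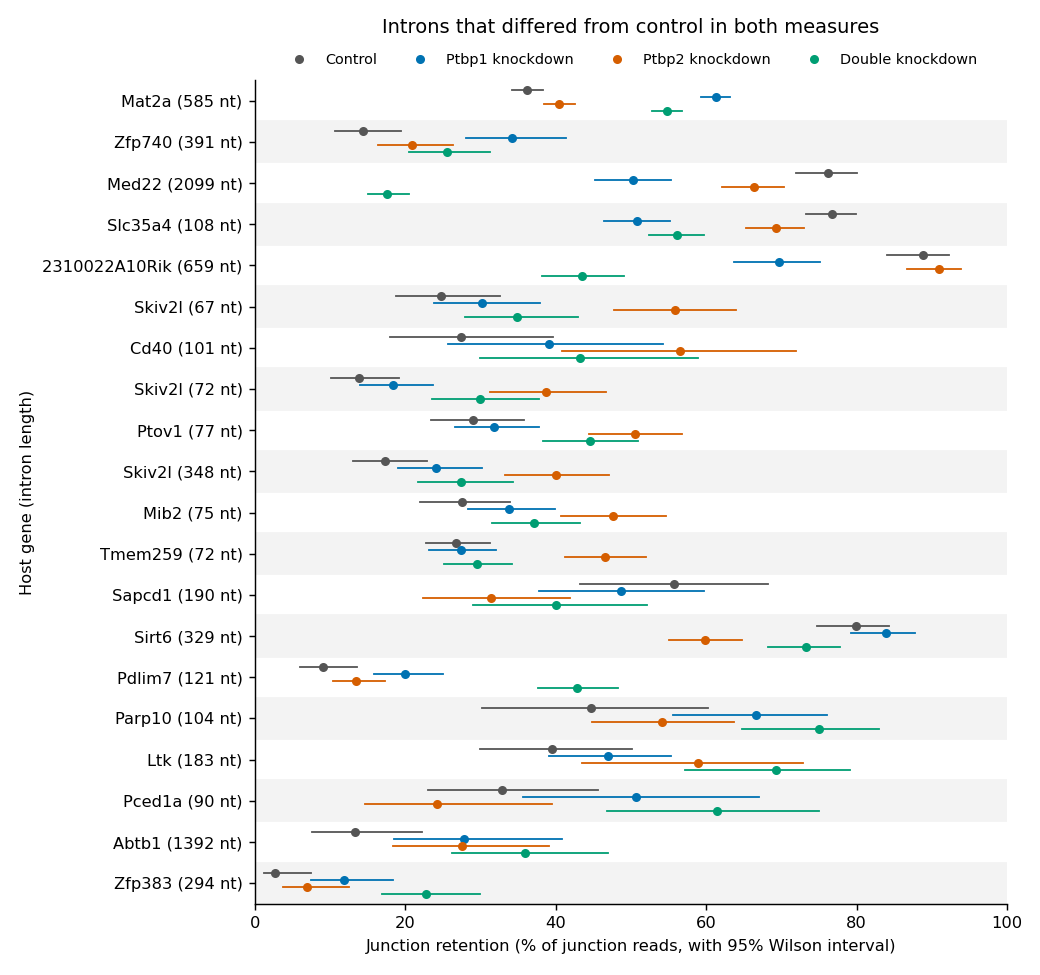
Junction retention (percent of junction reads, x axis) of the 20 introns past the stricter rule (y axis, with intron length), with 1 point per library and bars for the 95% Wilson interval, which covers counting error only. Med22 is at 76.2% in control and 17.6% in the double knockdown, and the Skiv2l introns are highest in the Ptbp2 knockdown.

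In the Ptbp2 knockdown the higher introns were internal, and 6 of the 7 were 101 bases or shorter. They were 3 introns of Skiv2l and single introns of Cd40, Ptov1, Mib2 and Tmem259, all of them inner introns of coding sequence. Skiv2l encodes the RNA helicase of the Ski complex, a cofactor of the cytoplasmic exosome. Its 67-base intron (number 14 of 27) read 0.278 in control, 0.346 with Ptbp1 depleted, 0.6 with Ptbp2 depleted and 0.393 with both depleted. Spliced reads over it were 111, 112, 62 and 98. Its 72-base intron (number 12) read 0.175, 0.207, 0.416 and 0.341, and its 348-base intron (number 10) 0.199, 0.254, 0.409 and 0.289.

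The last measured Skiv2l intron, number 8 and 147 bases long, read 0.276, 0.243, 0.405 and 0.331, a difference of under 0.2 in the Ptbp2 knockdown. All 4 were therefore highest in the Ptbp2 knockdown, and they share a transcript and are not independent. The level of Skiv2l was 20.1, 21.1, 17.6 and 15.9 per kb. Tmem259, the gene of the endoplasmic reticulum protein membralin, read 0.309, 0.317, 0.521 and 0.332 for a 72-base intron, with junction retention of 26.7% (22.8 to 31.3) in control against 46.5% (41.2 to 52) with Ptbp2 depleted. Its boundary reads were uneven, 45 at the 5′ end and 176 at the 3′ end in control.

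Mib2, an E3 ubiquitin ligase that acts on Notch ligands, read 0.318, 0.403, 0.564 and 0.436 for a 75-base intron. Ptov1 read 0.355, 0.387, 0.572 and 0.516 for a 77-base intron. Cd40, a receptor of the tumour necrosis factor family, read 0.276, 0.398, 0.562 and 0.426 for a 101-base intron, but with 54 trio reads in the Ptbp2 knockdown its junction interval was wide (40.9% to 72%). For all 7 introns the ratios in the double knockdown and in the Ptbp1 knockdown both lay between those of control and of the Ptbp2 knockdown. The 7 were chosen for a ratio higher in the Ptbp2 knockdown than in control, so the choice itself favours this order. Its part in the order was not tested.

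Both introns lower in the Ptbp2 knockdown were last introns in a 3′ UTR and inside a RefSeq exon. Sirt6, a chromatin deacetylase, read 0.78 in control, 0.798 with Ptbp1 depleted, 0.518 with Ptbp2 depleted and 0.638 with both depleted over 329 bases. Spliced reads were 53, 45, 155 and 89. The Sirt6 level was 11.3, 13.9, 17.7 and 13.7 per kb, highest where the intron was least retained. Sapcd1 read 0.605, 0.545, 0.344 and 0.402 over 190 bases. Vwa7 has an exon antisense to it there, and whether the authors' counting used strand is not given in the sources used here.

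The double knockdown added 6 higher introns, in Pdlim7, Parp10, Ltk, Pced1a, Abtb1 and Zfp383. Pdlim7, a PDZ and LIM domain protein of the actin cytoskeleton, read 0.085 in control, 0.197 with Ptbp1 depleted, 0.125 with Ptbp2 depleted and 0.414 with both depleted for its 121-base intron. Junction retention was 9.01% (5.9 to 13.5), 20% (15.8 to 25), 13.5% (10.4 to 17.3) and 42.9% (37.6 to 48.3). The double knockdown was thus the highest library beyond counting error, and control and the Ptbp2 knockdown overlapped. Gene levels of Pdlim7 were 31.9, 23.6, 48.4 and 22.5 per kb.

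Parp10, a mono-ADP-ribosyltransferase, read 0.287, 0.53, 0.46 and 0.621 for the first intron, in its 5′ UTR. Its spliced reads were few, at 21, 26, 47 and 21. Ltk, a receptor tyrosine kinase, read 0.373, 0.489, 0.502 and 0.667. The zinc finger gene Zfp383 read 0.026, 0.119, 0.056 and 0.236, and Abtb1 read 0.17, 0.279, 0.281 and 0.375. Pced1a read 0.304, 0.413, 0.202 and 0.589, and of the 6 only this intron was below control in the Ptbp2 knockdown. For all 6 introns, which were chosen for a high ratio there, the double knockdown had the highest ratio of the 4 libraries.

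At a limit of 0.1 in both measures further introns with known functions came up, named here after their values were seen. Chtop, an mRNA export factor known to regulate retention of its own intron, read 0.392, 0.242, 0.325 and 0.255 over 1283 bases. Its junction intervals in control (34.6% to 40.4%) and in the Ptbp1 knockdown (20.3% to 26.4%) did not overlap. Qtrt1, the catalytic subunit of the enzyme that puts queuine into tRNA, read 0.209, 0.38, 0.3 and 0.373 for a 76-base intron. Chkb, choline kinase beta, read 0.381, 0.517, 0.548 and 0.52 and was higher in every knockdown.

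Intron length went with the direction of the differences in the Ptbp2 knockdown. Ratios were higher by 0.1 or more for 75 of all introns (8.94%) and lower for 53 (6.32%). Among the 151 introns of 60 to under 100 bases, 29 (19.2%) were higher and 5 (3.31%) lower, while among 134 introns of 1000 bases or more, 5 (3.73%) were higher and 8 (5.97%) lower. In the double knockdown 87 introns were higher (10.4%) and 54 lower (6.44%), and the short class held 24 higher (15.9%) and 4 lower (2.65%). The Ptbp1 knockdown had 57 higher (6.79%) and 39 lower (4.65%), with 13 higher (8.61%) and 4 lower (2.65%) in the short class. The excess of higher ratios among short introns was thus largest in the Ptbp2 knockdown, with no test of the difference between libraries.

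GC content moved with length and gave a like picture. In the top quartile of GC, where the median length was 105 bases, 27 of 165 introns (16.4%) were higher and 8 (4.85%) lower in the Ptbp2 knockdown. In the bottom quartile, with a median length of 634 bases, 4 (2.42%) were higher and 10 (6.06%) lower. The parts of length, GC content and read coverage in these counts were not tested. Of the 359 inner introns 43 (12.0%) were higher and 9 (2.51%) lower in the Ptbp2 knockdown. Of the 123 last introns 7 (5.69%) were higher and 13 (10.6%) lower. In the double knockdown those counts were 48 (13.4%) and 13 (3.62%) for inner introns and 5 (4.07%) and 16 (13.0%) for last introns. The median control ratio was 0.092 for inner and 0.471 for last introns, so many inner introns had no room to fall by 0.1. The part of this starting level in the counts was not tested.

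**Figure D5:**
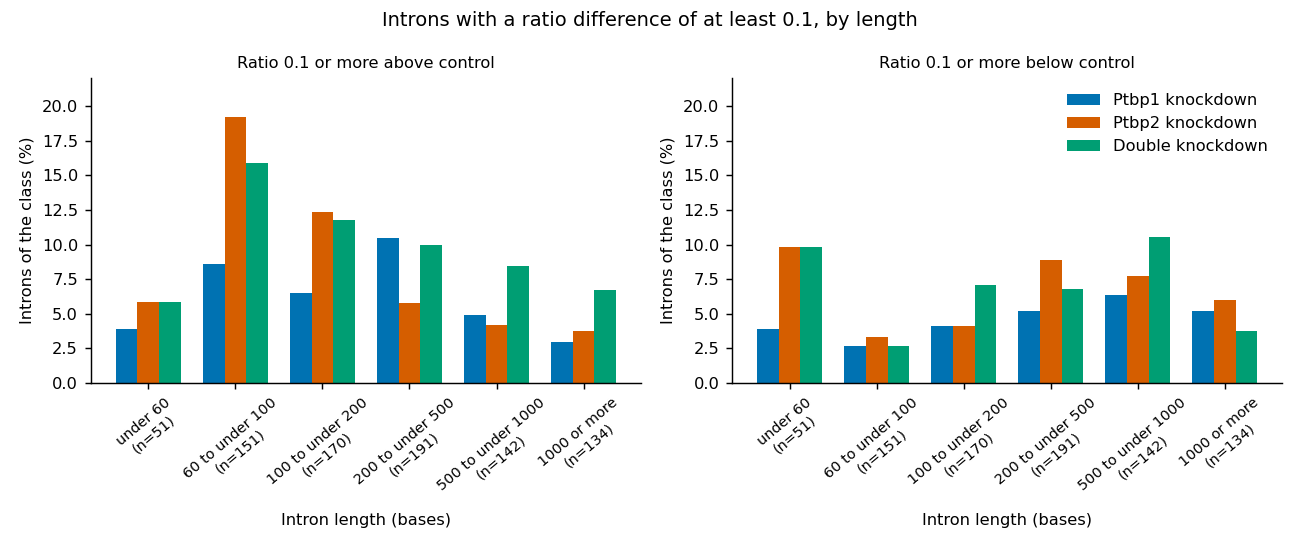
Share of introns in each length class (percent, y axis) whose retention ratio was at least 0.1 above control (left) or below control (right), with 1 bar per knockdown and the number of introns under each class. The tallest bar is the Ptbp2 knockdown at 60 to under 100 bases, where 19.2% of introns were higher and 3.31% lower.

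The ends of the introns were searched for TCTT, the DNA form of a known PTB-binding word, in the last 50 bases. It occurred in 43.6% of 659 introns, and its reverse complement AAGA in 10.2%. Introns with a sequence that passed 0.1 in both measures held it in 5 of 6 cases (83.3%) where they were lower in the Ptbp1 knockdown, 8 of 11 (72.7%) where lower in the double knockdown and 3 of 6 (50%) where lower in the Ptbp2 knockdown. Where they were higher, 1 of 9 (11.1%), 6 of 21 (28.6%) and 1 of 16 (6.25%) held it in the Ptbp1, double and Ptbp2 knockdowns. The word CTCTCT, which can overlap TCTT, was in 8.50% of all introns on the sense strand and 0.455% on the other. It was in 2 of 6 introns lower in the Ptbp1 knockdown, 2 of 6 lower in the Ptbp2 knockdown and 4 of 11 lower in the double knockdown. The 6 introns lower in the Ptbp1 knockdown were all among the 11 lower in the double knockdown. Of the introns that were higher, 1 of 9, 0 of 16 and 0 of 21 held it in the Ptbp1, Ptbp2 and double knockdowns.

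Single introns did not all follow these shares: of the printed ends, Med22, less retained in the Ptbp1 and double knockdowns, and Pdlim7, more retained in the double knockdown, each had 1 TCTT in the last 50 bases, and Mat2a and the Skiv2l, Tmem259 and Ptov1 introns had none. Cd40, more retained in the Ptbp2 knockdown, had 2. The sets also differed in length and composition: introns lower in the Ptbp1 knockdown had a median of 971 bases and 49.7% GC, and those higher in the Ptbp2 knockdown 93 bases and 63.5% GC. A match describes letters in the window and not binding, and the sets share the control library and some introns.

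Host gene levels and retention were nearly uncorrelated in their differences. Over 628 introns with a host level and enough junction reads, the Spearman correlation of the ratio difference with the host's log2 difference was -0.06, -0.04 and -0.03 in the Ptbp1, Ptbp2 and double knockdowns. Counted by intron, so that a host with several introns counts more than once, 3 of 9 introns higher by 0.1 in both measures in the Ptbp1 knockdown had a host at a lower level than in control, compared with 339 of the 628 overall. For the Ptbp2 knockdown the numbers were 10 of 19 against 255 of 628, and for the double knockdown 10 of 19 against 321 of 628. Of the introns lower by 0.1 in both measures, 3 of 5, 6 of 6 and 6 of 9 had a host at a higher level in the Ptbp1, Ptbp2 and double knockdowns, against 289, 373 and 307 of 628.

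The ratio and the junction reads parted for a minority of introns. In control 21 introns had a ratio under 0.1 but a junction retention of 90% or more, among them Rpl41 and Hnrnpm, whose ratio was 0 and junction retention 100% in all libraries. Of the introns of at least 60 bases, 80 had no spliced read in any library, and of these 20 had a control ratio under 0.1 and 52 a ratio of 0.9 or more. A ratio near 0 without a spliced read was therefore not taken as efficient splicing.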

How the data were processed

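Poly(A) RNA of 4 N2A libraries was analysed, 1 per condition. Per the submitters' processing notes, CASAVA, TopHat, Cufflinks and mm9 were used, and their versions and SpliceTrap's options, strand use included, are not given in the sources used here. Per the file headers, the deposited SpliceTrap tables give for each trio an inclusion ratio, a fraction after a correction by the authors, and counts of junction reads. The deposited coverage is a signal of reads times 100 over the segment size, with no scaling between libraries. The Cufflinks transcript files carry a score, deposited by the authors, of which only the coordinates beside it were used.

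Trio reads were coverage times summed segment sizes, and at least 20 were required in each library. Junction intervals were 95% Wilson. Hosts were named from RefSeq transcripts in the deposited files on mm9, or by matching intron structure to GENCODE vM21, which also gave place, frame and sequence. Host levels were exon reads of cassette trios per M reads and kb, scaled by the median of ratios, with a pseudocount of 0.1 before log2.

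Named introns were up to 10 per direction past a ratio difference of 0.2, a junction difference of 10 points and separate intervals, the 10 most retained in control (limited, beyond the rule, to those with a spliced read there), all members of the nuclear retained intron list, and up to 3 per other list by ratio difference. The introns of Rpl3, Rpl41, Rps24, the 103-base one of Hdac10, and those of Hnrnpm, Tardbp, Rbm5, Chtop, Qtrt1 and Chkb, the last of Trmt112 and the fourth of Skiv2l were named after their values were seen. Introns and lists were chosen with earlier results of these data known. The junction part of the calling step was tested on simulated counts of equal depth. That simulation held no SpliceTrap ratio and no variation between libraries, so it does not check the ratio limits or the lack of replicates. Python 3.11.15, pandas 2.3.3, numpy 2.4.6 and matplotlib 3.10.9 were used. Some genes and 1 sequence are not reported here.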

Additional observations from a re-analysis of the deposited data

How the results depend on the processing

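No paired analysis was possible because each group held 1 library. In the order Ptbp1 knockdown higher and lower, Ptbp2 knockdown higher and lower, double knockdown higher and lower, the counts of introns past the limit were 14, 12, 20, 13, 18 and 20. With a ratio limit of 0.1 they were 57, 39, 75, 53, 87 and 54. From junction retention in place of the ratio they were 5, 3, 10, 6, 11 and 6, and from intron over flanking exon coverage 67, 48, 86, 53, 87 and 47. Settings chosen after seeing the data gave 6, 4, 9, 4, 8 and 5 with at least 20 junction reads in each library, and 5, 4, 9, 3, 8 and 5 where ratio and junction retention both had to differ. At least 50 trio reads gave 8 and 12 higher in the Ptbp1 and Ptbp2 knockdowns and 11 higher and 13 lower in the double knockdown. The cause of these shifts was not tested beyond the smaller number of introns that the stricter settings hold.

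Counts stayed within 1.5 times with at least 10 trio reads, 1 event per intron, and, chosen after seeing the data, introns of at least 60 bases, the ratio before correction and introns free of another gene's exons. Median levels by coverage were 0.398, 0.425, 0.417 and 0.428 in control, Ptbp1, Ptbp2 and double knockdowns, and 0.314 by junction retention in the Ptbp2 knockdown. Each of the 23 differences past the stricter rule kept its direction in junction retention, which the rule itself required. Each also kept it in coverage, which comes from the same libraries, so neither is a separate check. Without scaling between libraries the host log2 difference of Mib2 in the Ptbp2 knockdown was 0.0305 in place of -0.01. Low junction counts and 1 library per condition limit precision.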
